A study of Mus musculus with 7 samples.

Results

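The U1 small nuclear RNA (U1 snRNA) is present in the mouse genome as many copies, and 133 of the 13218 genes with reverse transcription (RT) stops in these libraries carried the symbol U1. They were taken by that symbol, and no threshold on a measured value was added to the listing in the deposited counts. GENCODE vM1 names 206 genes U1, of which the 133 are those listed, and each is a gene of a single exon on mm9. The lowest of them had 246 stops over the 6 libraries, and whether the listing itself had a minimum was not tested. Their lengths ran from 101 to 186 nt with a median of 162 nt, and they lay on 20 chromosomes. In CIRS-seq, RNA of mouse E14 embryonic stem cells (ESCs) was freed of protein by Proteinase K and probed in its native fold. DMS was used as a pool of aliquots at 50 to 200 mM and CMCT as a pool at 10 to 50 mM. The untreated control (NT) was a pool of aliquots that had received 0 mM of either reagent. Each treatment had 2 biological replicates, and 1 RNA-seq library of the same cell line was also made. All libraries came from the unmodified E14 line, after depletion of ribosomal RNA and priming with random hexamers. Of the 140186197 to 247369966 RT stops a library that lay in genes, U1 copies took 11.2% and 9.18% in NT, 2.24% and 2.74% in DMS, and 5.94% and 8.33% in CMCT, sums in which a read placed on several copies counts several times.

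U1 snRNA is the RNA of the U1 snRNP, the particle that recognises the 5′ splice site of an intron by base pairing with the 5′ end of U1. Behind this single-stranded 5′ end, a junction of helices carries stem-loops I, II and III. Loop I is bound by the protein U1-70K and loop II by the protein U1A, and a ring of Sm proteins sits on a single-stranded stretch before stem-loop IV. DMS methylates A and C, and CMCT adds to U and G, where their pairing face is free, and the reverse transcriptase halts just before such a base. The counts lie on the base at which the enzyme was halted, not on the last base it copied, and untreated RNA also gives stops.

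The most frequent sequence, shared by 7 copies without a difference, is here called U1a, after the RefSeq gene Rnu1a1, a gene of 164 nt on chromosome 11. A second sequence, with copies on chromosome 3, is here called U1b, after the RefSeq genes Rnu1b1 and Rnu1b2, which are 165 nt long on chromosome 3. (RefSeq names and lengths were taken from GRCm38.p6, all positions from mm9.) The names rest on chromosome and length alone, which other U1 copies also have, and no comparison with RefSeq sequences is given here. Both sequences are shown because the loops compared below differ between them in stem-loop II alone. U1a was read at chr11:87240218-87240381 on the plus strand (ENSMUST00000093684) and U1b at chr3:96292652-96292816 on the plus strand (ENSMUST00000082513), each the whole exon of a U1 gene. Capitals mark the bases that recognise the 5′ splice site, then loops I, II and III.
U1a: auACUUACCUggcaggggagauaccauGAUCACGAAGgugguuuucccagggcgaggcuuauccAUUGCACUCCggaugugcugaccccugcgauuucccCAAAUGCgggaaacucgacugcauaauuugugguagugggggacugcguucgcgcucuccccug
U1b: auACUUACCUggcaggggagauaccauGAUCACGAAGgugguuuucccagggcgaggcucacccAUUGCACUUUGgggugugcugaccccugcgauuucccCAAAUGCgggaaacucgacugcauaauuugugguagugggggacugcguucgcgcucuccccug
Counted from 1 at the 5′ end of U1a, the substitutions in U1b were U60C, U62C, C73U, C74G and A77G, next to 1 additional base in loop II. All 36 base pairs of the structure used here (helices of the junction and of stem-loops I to III) were complementary in U1a.

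The 7 U1a copies carried the same count at every position, within 1 stop in each of the 6 libraries. Copy ENSMUST00000093684 had 741037 and 514324 stops in NT, 159521 and 175059 in DMS, and 509346 and 374383 in CMCT, and the other 6 matched these to within 1. U1b and ENSMUST00000082883 shared their counts likewise (668912 and 450071 in NT, 133675 and 161438 in DMS, 527798 and 402537 in CMCT), as did 3 copies of 166 nt (ENSMUST00000083360 and others) and a pair of 165 nt (ENSMUST00000083374 and ENSMUST00000097246). Each of these 4 groups holds a single sequence, so its members are shared reads and count as 1 measured sequence.

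The sharing reached far beyond identical copies. At bases of the other copies aligned to U1a or U1b, the count was compared with that of U1a or U1b by the number of mismatches in the 25 bases that follow, where the read lies. Bases with under 1000 stops in U1a or U1b over the 6 libraries were left out. With 0 mismatches, the copy held a median of 100% of the count of U1a or U1b (1790 positions, 48 copies), and at 69.2% of these positions all 6 libraries matched within 1 stop. This class includes the other copies identical to U1a or U1b, which match by their sequence. The median was 16.9% with 1 mismatch, 2.42% with 2 and 0.430% with 3, and with 4 or more it was 0%, with 88.1% of the 5424 positions at 0. Over all 133 copies, 99.97% of U1 stops lay at bases whose following 25 bases were within 3 mismatches of a stretch of U1a or U1b. This share and the values over copies below include U1a, U1b and the copies identical to them, whose stops lie at such bases by definition. Single copies had a median of 99.8% of their stops at such bases, which made up a median of 30.7% of their length, and 118 copies had at least 90%. In 4 copies under 50% of the stops did, and the lowest of them had 0% of its 285 stops there. Stops of divergent copies and stops of U1a or U1b cannot be told apart at such bases.

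**Figure D1:**
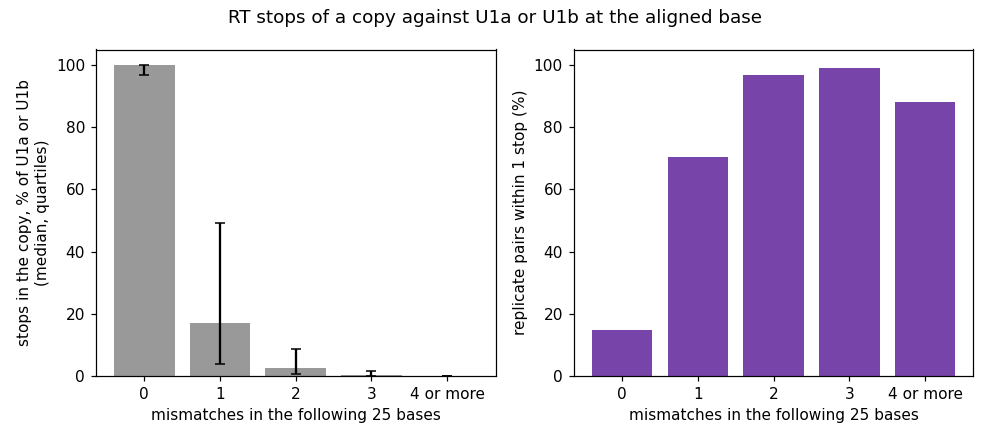
Left, stops at a base of a U1 copy in percent of the stops at the aligned base of U1a or U1b, by mismatches in the following 25 bases (bars, median over positions, with quartiles as error bars). Right, share of replicate pairs of at least 20 stops that differed by at most 1 stop. The count falls from 100% at 0 mismatches to 0.430% at 3, while equal pairs rise from 14.8% to 99.1%. With 4 or more mismatches, equal pairs stand at 88.2%. The class of 0 mismatches includes copies identical to U1a or U1b.

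Replicates of a treatment were also equal in places. Where 25 bases matched U1a or U1b exactly, identical copies included, 14.8% of the replicate pairs of at least 20 stops differed by at most 1 stop. With 1 mismatch 70.4% did, with 2 mismatches 96.9%, with 3 mismatches 99.1%, and with 4 or more 88.2% of 304 pairs. Copy ENSMUST00000083083 at chr6:97522070-97522232 (minus strand, 89.0% identical to U1a) had 50664 and 50665 stops in NT, 7492 and 7492 in DMS, and 27733 and 27732 in CMCT. A chi-square index of the difference between replicates over positions, near 1 for independent counts of the same profile, was 0.00635, 0.00838 and 0.00784 for its 3 treatments. By this index, 61 of the 110 U1 copies with enough counts (55.5%) had replicates equal below sampling noise in all 3 treatments (index under 0.1), against 7.37% of the other genes. In these 61 copies, and in the 23 with too few counts to judge, the replicates carry no independent spread that could be shown, and no adjusted p is given for them. The 40 copies whose replicates differed in all 3 treatments were nearer to U1a or U1b by the median, at 97.6% identity against 75% in the 61. Single copies among the 40 lay lower, such as ENSMUST00000082671 at 75.6%. In U1a itself, 21 of 111 residues with over 50 stops had NT replicates within 1 stop, 6 had such DMS replicates and 19 such CMCT replicates.

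The copy analysed in the study, ENSMUST00000083033 at chr1:180567036-180567202 (plus strand, 167 nt, 93.9% identical to U1b), had 584581 and 379725 stops in NT, 107202 and 106981 in DMS, and 384629 and 268311 in CMCT. Of its stops, 98.2% lay at residues 1 to 33, and 85.8% were followed by 25 bases identical to U1a or U1b. Residues 81 to 102 held 0 stops over all 6 libraries. Among its differences from U1a, numbered as in U1a with the U1a base first, were C53U, G93A and U105C. Only 20 residues from 34 to 80 and 6 residues from 103 on passed 50 stops, so that most of stem-loops II and III could not be judged in this copy.

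A second copy of this kind, among the 3 with the largest called fall in either reagent, was ENSMUST00000082498 at chr10:104477329-104477494 (plus strand, 92.7% identical to U1a). Its residues 1 to 110 are shown beside the gaps in its counts, with capitals for bases that differ from U1a or have no aligned base there.
ENSMUST00000082498: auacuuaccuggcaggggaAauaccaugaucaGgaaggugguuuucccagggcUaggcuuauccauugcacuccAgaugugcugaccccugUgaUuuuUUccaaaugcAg
Its stops numbered 234010 and 233998 in NT, 15081 and 15195 in DMS, and 118345 and 118299 in CMCT. Residues 1 to 38 held 95.2% of them, residues 39 to 48 held 3 stops in all and residues 74 to 101 held 0. Capitals also lie within residues 1 to 38. What places these gaps was not tested.

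**Figure D2:**
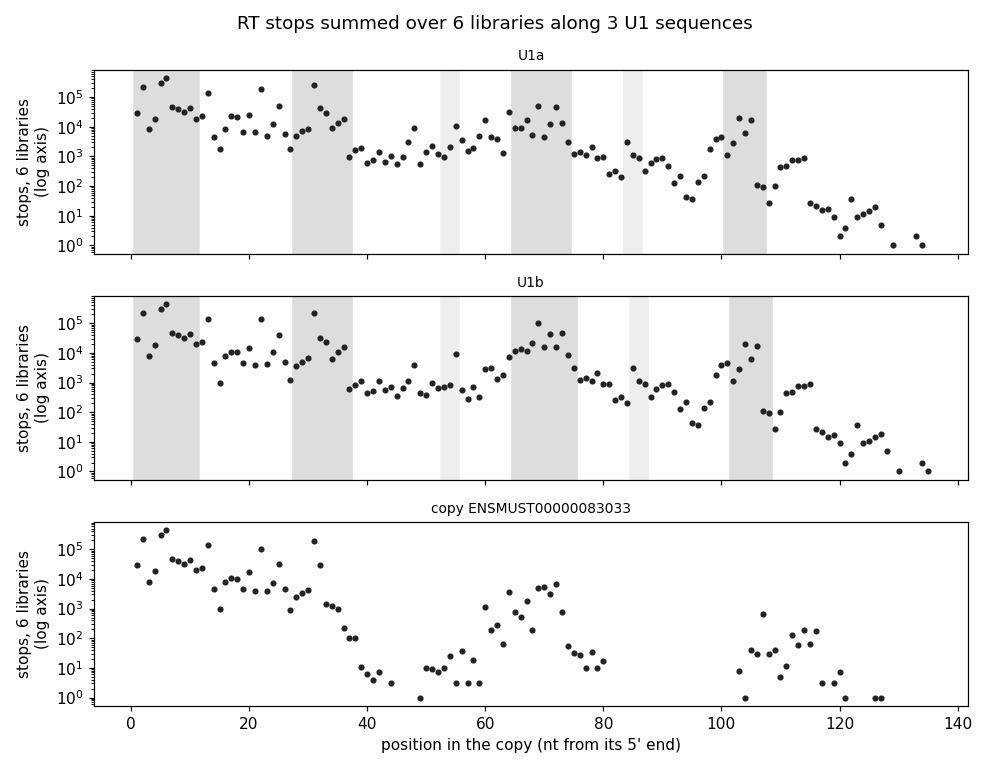
RT stops summed over the 6 libraries (log axis) at each position of U1a, U1b and ENSMUST00000083033, counted in nt from the 5′ end of each, with loops shaded in U1a and U1b. Positions without stops have no point, and the last copy is empty from 81 to 102.

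In U1a, which the further results describe, stops were concentrated toward the 5′ end. Outside residues 49 to 70, its counts cannot be told apart from reads of U1b. Its shares, stop rates and reactivities therefore mix both forms there, and all of them use totals or 5′ stops that do. Residues 1 to 37 took 93.6% and 93.3% of the stops in NT, 80.4% and 75.4% in DMS, and 79.6% and 74.4% in CMCT. Both treated groups lay below NT and did not overlap it. From residue 115 on there were 17 and 13 stops in NT, 42 and 60 in DMS and 32 and 29 in CMCT, so the Sm site and stem-loop IV could not be judged. The last 28 bases of a copy held no stops in any of the 133 copies.

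Without reagent, U5 and U6 were among the 3 residues with the most stops in both NT libraries, next to C31 of loop I in replicate 1 and U22 in replicate 2. U5 had 105338 and 105428 stops in NT, 1486 and 1739 in DMS, and 44836 and 42618 in CMCT. As a share of the stops of U1a, that was 14.2% and 20.5% in NT but 0.932% and 0.993% in DMS, with CMCT between at 8.80% and 11.4%. The fall in DMS was −4.17 on the log2 scale (SE 0.26, adjusted p = 0.00761 by edgeR's quasi-likelihood test on the share). It was −6.50 with library size as the scale, and the call was lost without NT replicate 1, NT replicate 2 or DMS replicate 2. The NT counts of U5 were nearly equal although the U1a totals of these libraries were not, so its error may cover no independent spread in NT. U6 had 109680 and 111996 stops in NT, 8758 and 17683 in DMS, and 104486 and 87757 in CMCT, and its share did not pass the test in DMS (log2 −1.23, SE 0.36, adjusted p = 0.0787).

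Because a stop shortens the cDNA, a stop rate is also given, the stops at a residue in percent of the stops at this residue and at all residues 5′ of it. Full-length cDNAs are not among the counts, so rates are given from residue 5 on. At residues 49 to 70 the stops further 5′ can also come from U1b, and this was not corrected. Residues are called raised here where both treated rates lay above both NT rates and their mean was at least 2 times that of NT. That is a description, chosen after the data were seen. The residues raised in the first 114 bases of U1a are shown in capitals for each reagent.
U1a, raised by DMS: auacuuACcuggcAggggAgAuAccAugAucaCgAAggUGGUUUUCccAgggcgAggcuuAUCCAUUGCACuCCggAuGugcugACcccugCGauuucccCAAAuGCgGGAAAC
U1a, raised by CMCT: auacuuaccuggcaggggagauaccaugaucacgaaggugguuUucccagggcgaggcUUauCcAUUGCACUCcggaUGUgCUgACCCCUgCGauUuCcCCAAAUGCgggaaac
DMS raised 52 of 107 residues, with 25 of 45 single-stranded and 27 of 62 paired, 12 of 20 in stem I among them. The median rate over all residues was 2.27 times NT, so the limit of 2 lies near that of the whole RNA. A rate can rise while the count falls, as at U72 with 1652 and 1394 stops in NT and 733 and 698 in DMS. By base, DMS raised 22 of 23 A, 14 of 30 C, 8 of 30 G and 8 of 24 U. By this description A was raised at 11 of 11 paired and 11 of 12 single-stranded residues, and C at 4 of 17 paired and 10 of 13 single-stranded residues. CMCT raised 12 of 24 U, 4 of 30 G, 14 of 30 C and 6 of 23 A. By element, CMCT raised 9 of 10 residues of loop II and 7 of 7 of loop III, but 0 of 10 of loop I and 0 of 7 of the 5′ end. In the stems it raised 1 of 20 residues of stem I, 10 of 26 of stem II and 5 of 12 of stem III. Of all residues it raised 36 of 107, with 20 of 45 single-stranded and 16 of 62 paired.

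**Figure D3:**
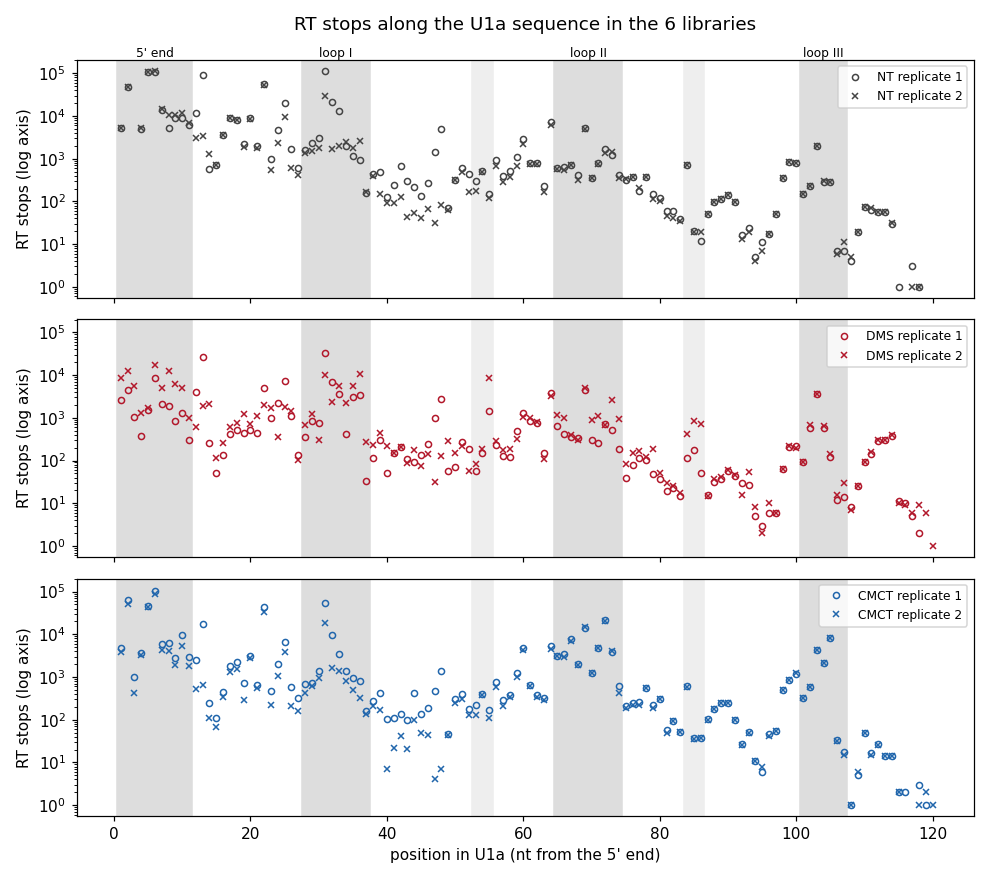
RT stops (log axis) at each residue of U1a in both replicates of NT, DMS and CMCT, with the single-stranded 5′ end and loops I to III in dark shading and the internal loop of stem-loop II in light shading. Stops fall from 105338 and 105428 at residue 5 in NT to a summed 60 or fewer a library beyond residue 114, and loops II and III stand up with CMCT.

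At the 5′ end, A3 had 0 stops in both NT libraries, 1029 and 5684 in DMS and 996 and 412 in CMCT. Against a floor of 3 stops in each NT library, its share of stops was at least 1106-fold higher in DMS and at least 189-fold higher in CMCT. It passed the test in both reagents (adjusted p = 0.018 and 0.045, edgeR). The call in CMCT was lost without any 1 of the NT and CMCT libraries, with the replicate block, with a minimum of 200 stops and without positions of equal replicates, and that in DMS without either NT library or DMS replicate 2. A7, in the stretch that pairs with the 5′ splice site, had a stop rate of 4.73% and 5.06% in NT and 10.3% and 9.83% in DMS. C8 next to it had 1.79% and 3.58% in NT and 8.43% and 19.0% in DMS. Neither share of stops passed the test in DMS (adjusted p = 0.866 and 0.317, edgeR). With CMCT the rates of A7 were 2.59% and 2.19%, below both NT values.

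In loop I, the site of U1-70K, DMS raised the stop rate at 4 of 10 residues, beside 52 of 107 over all residues. In the paired stem I it raised 12 of 20. A35 had 1141 and 1797 stops in NT, 3009 and 5545 in DMS, and 940 and 508 in CMCT. Its stop rate was 0.165% and 0.377% in NT and 2.41% and 4.57% in DMS, and its share rose by 3.33 on the log2 scale (SE 0.54, adjusted p = 0.0203, edgeR). With library size in place of the total of the copy as the scale, that change was 1.03 and did not pass. A36 had 0.134% and 0.544% in NT and 2.66% and 7.96% in DMS, with libraries that did not overlap, but did not pass the test (log2 3.68, SE 0.95, adjusted p = 0.0585, edgeR). In CMCT, the mean rate over loop I was 1.89% and 0.934%, against 2.42% and 0.946% in NT, so the groups overlapped.

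In the internal loop of stem-loop II, 3 residues rose strongly with DMS. A55 had 147 and 120 stops in NT, 1481 and 8704 in DMS, and 173 and 109 in CMCT. The rates were 0.0208% and 0.0249% in NT against 1.09% and 6.06% in DMS, and the share rose by 7.09 on the log2 scale (SE 1.02, adjusted p = 0.0162, edgeR). Across the internal loop, A85 rose from 20 and 19 stops in NT to 175 and 831 in DMS (log2 6.51, SE 0.92, adjusted p = 0.0157), and C86 from 12 and 19 to 51 and 712 (log2 6.38, SE 1.48, adjusted p = 0.046, both edgeR). All DMS libraries lay above all NT libraries at these 3 residues, and DMS replicate 2 lay far above DMS replicate 1. Without DMS replicate 2 the changes of A55, A85 and C86 were 5.43, 5.10 and 3.61 and none passed, nor did they without either NT library. With library size as the scale they were 4.82, 4.23 and 4.13 and passed, while C86 did not pass with a minimum of 200 stops. With CMCT, none of them passed the test (adjusted p = 0.683, 0.304 and 0.422, edgeR).

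In loop II, the site of U1A, 7 of 10 residues were called higher in DMS and 6 of 10 in CMCT by edgeR. In U1b, 0 of 11 residues of this loop were called higher in DMS and 6 of 11 in CMCT. The DMS calls are on the share of the stops of the copy. With library size as the scale, 7 of all 111 residues of U1a were higher in DMS and 43 lower. U72 had 1652 and 1394 stops in NT, 733 and 698 in DMS, and 21400 and 20020 in CMCT. Its stop rate was 0.226% and 0.276% in NT, 0.485% and 0.433% in DMS and 4.43% and 5.75% in CMCT. The share of stops rose by 4.27 in CMCT (SE 0.21, adjusted p = 0.00252, edgeR). U67 had 711 and 699 stops in NT, 360 and 393 in DMS and 7629 and 6990 in CMCT (CMCT log2 3.86, SE 0.25, adjusted p = 0.00454, edgeR). The other named residues of this loop in CMCT were G68 with a log2 change of 2.94, U66 with 2.91, A65 with 2.89 and C69 with 2.02, all past the threshold. With library size as the scale, U66, A65 and C69 no longer passed (1.94, 1.93 and 1.06). Leaving out any 1 of the NT and CMCT libraries lost the calls of U66 (2.78 to 3.06) and A65 (2.67 to 3.11). Each other named call of this loop in CMCT was lost in some of these fits. Over the 10 residues, the mean stop rate was 0.165% and 0.224% in NT, 0.554% and 0.893% in DMS and 1.36% and 1.83% in CMCT, and the 3 groups did not overlap.

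In loop III, 6 of 7 residues were called higher in DMS and 6 of 7 in CMCT by edgeR. Replicates lay within 1 stop of each other at 5 of the 7 in NT, 1 in DMS and 4 in CMCT, U105 and A102 in NT among them, and there the errors below cover no independent spread. U105 had 285 and 286 stops in NT, 119 and 139 in DMS, and 8146 and 8126 in CMCT. The CMCT change was 5.32 on the log2 scale (SE 0.30, adjusted p = 0.00345), while the DMS change of 0.71 did not pass (SE 0.26, adjusted p = 0.12, both edgeR). A102 had 234 and 235 stops in NT, 587 and 690 in DMS and 591 and 589 in CMCT (DMS log2 3.30, SE 0.29, adjusted p = 0.00873, and CMCT log2 1.82, SE 0.27, adjusted p = 0.0307, both edgeR). A104 passed with both reagents, by 2.92 in DMS and 3.35 in CMCT. G106 and C107, also named in DMS (log2 2.96 and 3.07), rest on 6 to 29 stops a library in NT and DMS. G106 was also named in CMCT (log2 2.80), where library size as the scale gave 1.84 and no call. Of this loop, U105 and A104 alone were still called in CMCT with that scale. With that scale, the DMS changes of A102, A104, G106 and C107 were 0.97, 0.59, 0.65 and 0.77 and none passed by edgeR. Beside it, in the 3′ side of stem III, DMS stops were high at residues annotated as paired. A112 had 57 and 57 stops in NT, 286 and 302 in DMS and 27 and 25 in CMCT, A113 had 56 and 55, 310 and 309, and 14 and 14, and the bulged C114 had 29 and 32, 383 and 405, and 14 and 14. DMS libraries stood above NT and CMCT at all 3 of these residues. The replicates of A113 lay within 1 stop of each other in every treatment, so its error covers no independent spread.

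**Figure D4:**
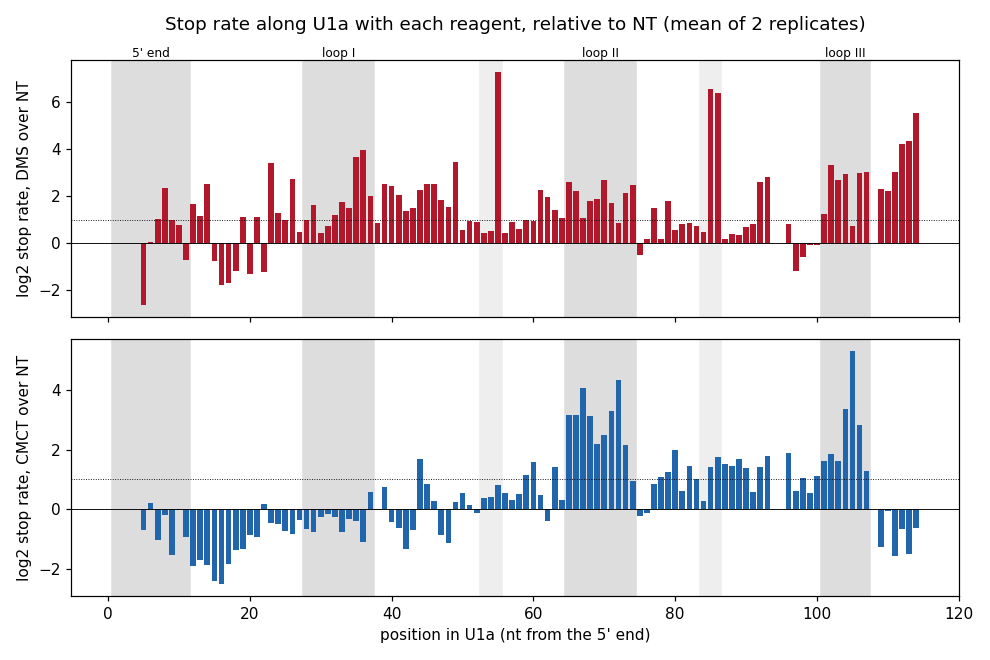
Stop rate at each residue of U1a from residue 5 on, with over 50 stops, as log2 of the mean of both DMS or CMCT replicates over the mean of both NT replicates. The dotted line marks 2 times NT, shading is as in the plot of stops. DMS stands highest at A55, A85 and C86 and CMCT in loops II and III.

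Among the 111 residues of U1a tested, 35 had a higher and 5 a lower share of stops in DMS than in NT, and 18 a higher and 5 a lower share in CMCT. Over all positions tested in all genes, 13.4% were called higher and 8.5% lower in DMS, and 5.11% higher and 4.37% lower in CMCT. Single-stranded residues of U1a were called higher in DMS at 20 of 49 and paired residues at 15 of 62, and in CMCT at 14 of 49 and 4 of 62. With library size in place of the total of the copy as the scale, 7 residues of U1a were higher and 43 lower in DMS, and 6 higher and 10 lower in CMCT. The call count in DMS fell to 0 without NT replicate 1, NT replicate 2 or DMS replicate 2, where 46, 43 and 59 residues had an unadjusted p under 0.05 by edgeR, and was 31 higher and 6 lower without DMS replicate 1. It was 20 and 19 higher, each with 5 lower, without CMCT replicate 1 or 2, which share the estimate of the spread. The CMCT count was 0 without NT replicate 1 (35 with an unadjusted p under 0.05, edgeR), 2 without NT replicate 2 or CMCT replicate 2, and 6 without CMCT replicate 1, all higher, and 9 higher and 2 lower without either DMS replicate. Without positions whose replicates were equal in all 3 treatments, 25 residues were higher and 5 lower in DMS, and 9 higher and 2 lower in CMCT. Over all copies, 1677 of 4960 positions were called higher and 648 lower in DMS (318 and 2491 with library size), and 908 higher and 681 lower in CMCT (436 and 583), counts in which the same reads recur from copy to copy.

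U1a and U1b could be told apart only where the insertion and substitutions of stem-loop II keep reads of the other form beyond 3 mismatches. These were residues 49 to 70 of U1a (22 residues) and 49 to 71 of U1b (23 residues). There U1a held 25321 and 21239 stops in NT, 16653 and 25734 in DMS, and 47687 and 44109 in CMCT. U1b held 22128 and 20247 in NT, 8126 and 19774 in DMS, and 88757 and 87457 in CMCT. U1b thus stood at 0.874 and 0.953 of U1a in NT, at 0.488 and 0.768 in DMS, and at 1.86 and 1.98 in CMCT, with no overlap between the treatments. In the separable residues of loop II alone, U1b had 15943 and 15125 stops in NT and 84173 and 83605 in CMCT, while U1a had 7946 and 7326 in NT and 31881 and 30647 in CMCT, over 7 residues in U1b and 6 in U1a. The ratio of U1b to U1a was thus 2.01 and 2.06 in NT and 2.64 and 2.73 in CMCT. In DMS, U1b had 6300 and 10189 and U1a 6545 and 8887, a ratio of 0.963 and 1.15, below both other treatments. The separable residues of stem II were 12 in each form, from 49 to 64, and hold U60C and U62C but not A77G. In them U1b stood below U1a in every library, at 0.364 and 0.369 of U1a in NT, 0.126 and 0.185 in DMS and 0.302 and 0.301 in CMCT. The loop II of U1b rose in CMCT at U67 (501 and 502 stops in NT, 5315 and 4703 in CMCT, log2 3.54), with NT replicates again within 1 stop. In DMS, 0 of 11 residues of loop II were called higher in U1b and 7 of 10 in U1a by edgeR. Over all residues tested, 22 of 112 were called higher in DMS in U1b and 35 of 111 in U1a. The difference between the forms was not tested.

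A few residues of U1a were high in replicate 1 of every treatment. At C13, NT had 88959 and 3485 stops, DMS 26968 and 1872, and CMCT 17825 and 634. C48 had 5048 and 84 in NT, 2722 and 131 in DMS, and 1357 and 7 in CMCT. At 4 of 111 residues (13, 32, 47 and 48) the share in replicate 1 was at least 3 times that in replicate 2 in all 3 treatments, and at 0 residues the reverse held. Their log2 changes have errors of 1.29 to 2.65 in the fit without a replicate block. Within a replicate number, the stop rate of C13 went from 21.4% in NT to 47.9% in DMS and 6.61% in CMCT in replicate 1, and from 1.04% to 2.37% and 0.305% in replicate 2.

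**Figure D5:**
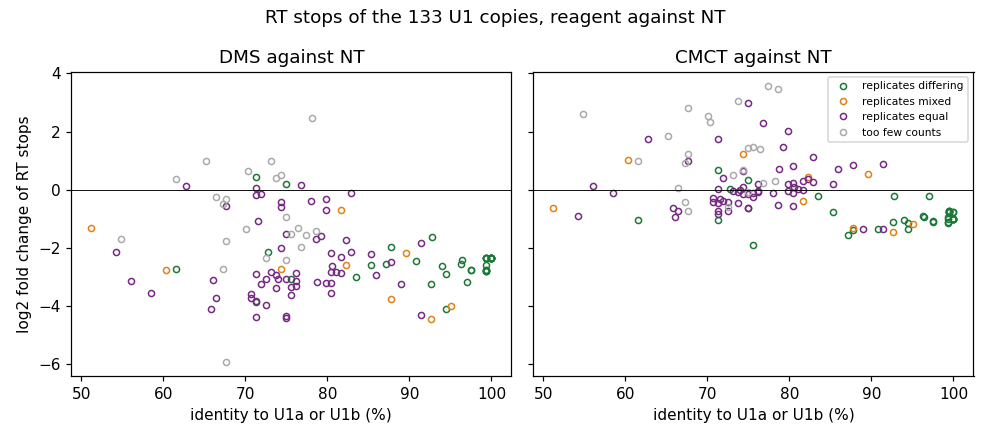
Log2 fold change of the RT stops of each of the 133 U1 copies (edgeR, 2 replicates a treatment) against its identity to U1a or U1b in percent, for DMS and CMCT against NT, coloured by whether the replicates of the copy differed. Nearly all copies lie below 0 in DMS, while copies near 100% identity lie below 0 and many divergent ones above 0 in CMCT.

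Per copy, U1 had fewer stops in DMS than in NT. After TMM scaling, U1a fell by 2.35 on the log2 scale in DMS (SE 0.47, adjusted p = 0.00282) and its change in CMCT of −0.99 did not pass (SE 0.45, adjusted p = 0.12). U1b fell by 2.36 in DMS (SE 0.47, adjusted p = 0.00287) and ENSMUST00000083033 fell by 2.60 (SE 0.46, adjusted p = 0.00166), and neither passed in CMCT (adjusted p = 0.248 and 0.0929, all edgeR). With DESeq2 the CMCT falls of U1a and ENSMUST00000083033 passed (log2 −1.10 and −1.16). Without DMS replicate 1, the DMS calls of U1a and ENSMUST00000083033 were lost (log2 −2.26 and −2.58). The amount of U1 RNA and the number of cDNA ends it gave cannot be told apart in such counts. In DMS against NT, 104 of the 133 copies were called lower and 2 higher, where 12.5% of all genes were called lower and 13.8% higher. The median log2 change of the copies was −2.42, against 0.01 over all genes. Of the 40 copies with differing replicates, 37 were lower and 0 higher, and the whole range of these 40 was −4.09 to 0.44. Copies with equal replicates gave 49 of the 104 and those with too few counts gave 10, and also both that were higher. In CMCT against NT, 9 copies were lower and 21 higher, with 13.9% and 15.0% of all genes, and the median of the copies was −0.14 (all genes 0.11). Among the 40, 4 were lower and 0 higher by edgeR, at a median of −0.99, while copies with equal replicates gave 8 and those with too few counts 12 of the 21 that were higher. Directly between the reagents, 101 copies were lower in DMS than in CMCT and 1 was higher, beside 6.79% and 2.47% of all genes, with 23 of the 40 lower and 0 higher. The copies repeat each other's reads, so these counts are not separate results. The split in CMCT moved with the setting, to 1 lower and 13 higher when NT replicate 1 was left out, 0 and 14 when it was NT replicate 2, 1 and 17 for DMS replicate 1, 1 and 31 for CMCT replicate 1, 18 and 17 for CMCT replicate 2, and 49 and 21 with DESeq2 in place of edgeR. Also, without DMS replicate 1, 58 were called between the reagents. When only positions whose sequence occurs once in the genome were counted, 66 of 116 copies tested were lower and 1 higher in DMS, and 1 lower and 14 higher in CMCT, where 298 and 726 of all 11522 genes tested were lower and higher in DMS and 130 and 503 in CMCT. In that count, the DMS change of ENSMUST00000083033 was −0.25 and did not pass, and its CMCT change turned to 2.19.

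The copies with the largest called changes and without overlap between groups were mostly those with equal or few counts. In CMCT, ENSMUST00000104150 at chr17:32937512-32937675 (minus strand) had 168 and 171 stops in NT, 81 and 81 in DMS and 2808 and 2809 in CMCT. ENSMUST00000083364 at chr11:72695294-72695455 (plus strand) had 158 and 157, 83 and 82, and 2418 and 2418, and ENSMUST00000082921 on chromosome 9 had 12 and 11, 21 and 21, and 131 and 131. In DMS, the highest changes were in ENSMUST00000084000 on chromosome 9, with 16 and 15 stops in NT and 118 and 118 in DMS, and in ENSMUST00000083053 on chromosome 6, with 79 and 80 in NT and 218 and 218 in DMS. The call of the latter was lost without any 1 of the NT and DMS libraries (log2 0.78 to 1.21) and with positions found once. The lowest were ENSMUST00000157426 on chromosome 8 (354 and 355 in NT, 8 and 8 in DMS), ENSMUST00000082498 (given above, log2 −4.43) and ENSMUST00000082764 on chromosome 4 (2107 and 2108 in NT, 139 and 138 in DMS). In each of these the replicates of a treatment were nearly equal, and no adjusted p is given for them. Of the copies with differing replicates, ENSMUST00000082671 at chr12:55340225-55340373 (plus strand) fell most in CMCT, with 129335 and 120489 stops in NT, 18977 and 22391 in DMS and 48517 and 45000 in CMCT (log2 −1.89, SE 0.42, adjusted p = 0.00585, edgeR). Its call was lost without NT replicate 2 and with positions found once in the genome (−1.73 and −2.39). ENSMUST00000083116 at chr2:132834223-132834390 (plus strand) had 244195 and 121739 in NT and 124086 and 72441 in CMCT (log2 −1.39, SE 0.42, adjusted p = 0.0272, edgeR), a call lost without any 1 of the NT and CMCT libraries (−1.07 to −1.66) and with positions found once.

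For reactivities, treated and NT stops were each first divided by their mean over the copy, so that shares of stops are compared and not numbers. The log2 ratios of treated to NT were then set to 0 where negative, and capped and divided at their 90th percentile. The larger of the DMS and CMCT value was taken at each residue. In U1a the mean was 0.596 over 44 residues of the loops and the 5′ end and 0.434 over 62 paired residues, a difference of 0.161 (0.148 in replicate 1 and 0.155 in replicate 2 alone). It was 0.00139 when the terminal pairs of each helix were counted as single-stranded. Loop II was reactive at 0.971 on average and loop III at 0.927, with 17 of 17 residues above 0.7, while loop I had a mean of 0.389 with 2 of 10 and the 5′ end one of 0.256 with 1 of 11. Stem III averaged 0.688 with 6 of 12 residues above 0.7, stem II 0.421 with 2 of 26 and stem I 0.347 with 1 of 20. Shares of residues 1 to 37 fell in both reagents, and its part in these values was not separated from structure. Of the 34 residues above 0.7, 25 (73.5%) were single-stranded, in a sequence of which 44.1% of the residues judged were. In U1b the difference was 0.225 and 24 of 30 such residues were single-stranded. Since 1 RNA gives no replicate residues, no test was made.

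Among other spliceosomal RNAs, U2 (42 copies) had a median log2 change of 0.80 in DMS with 9 copies higher and 0 lower, U6 (664 copies) one of 0.91 with 322 higher and 0 lower, U4 (40 copies) −0.98 with 21 lower and 1 higher, and U5 (10 copies) −0.40 with 0 called by edgeR. Over all genes, 12.5% were lower and 13.8% higher. Sharing of reads was not examined in them. Of 16 genes for U1 snRNP and associated proteins, 2 were lower and 2 higher in DMS, and 2 lower and 0 higher in CMCT, beside 12.5% and 13.8% of all genes in DMS and 13.9% and 15.0% in CMCT. Prpf39, a splicing factor bound to U1, fell by 1.88 in DMS (SE 0.33, adjusted p = 0.00165) and by 1.94 in CMCT (SE 0.33, adjusted p = 0.00154, both edgeR). Snrpb, of the Sm ring, fell in DMS (log2 −0.76, adjusted p = 0.0342), Snrpf and Snrpn, of the same ring, rose (1.28 and 1.35, adjusted p = 0.00748 and 0.00525), and Luc7l2 fell in CMCT (−1.73, adjusted p = 0.0305, all edgeR). Snrnp70, which encodes U1-70K, Snrpa, which encodes U1A, and Snrpc did not pass in either.

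The RNA-seq library of 31857551 alignments did not keep the strand of mRNAs, with 2745 alignments of Pou5f1 on its strand and 2640 on the other. In it, the 7 identical U1a copies had 477 to 1264 alignments on their strand and 15 to 42 on the other. The 7 copies on chromosome 3 over 99% identical to U1b had 3136 to 11259 on their strand and 6929 to 8263 on the other. Of the 133 copies, 75 had no alignment. ENSMUST00000083033 had 63. The library held all 10 ESC markers at 3.74 (Utf1) to 221 (Dppa5a) alignments per kb and 1000000 alignments, while 5 fibroblast feeder markers lay at 0.004 to 0.235, endoderm markers at 0 to 3.05 (Gata6), mesoderm markers at 0.0679 to 0.242 and Pax6 at 0.331. As RT stops, Pax6 had 93185 and 101377 in NT and Col1a1 35208 and 35121, and Pou5f1 had 15591 and 10135.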

How the data were processed

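RT stops were counted by the authors per transcript position in each of 6 CIRS-seq libraries and deposited as raw counts, with reads placed on an mm9 genome that carries single-nucleotide variants of E14 cells. Bowtie 1.0.0, FastQC 0.10.1 and bedtools 2.17.0 are named in the submitters' processing notes without a role. How reads with several places were handled is not given in the sources used here. The deposited RNA-seq file holds other values, the position of each alignment, with TopHat2 2.0.6 and Bowtie 1 named in the same notes.

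Transcripts were matched to GENCODE vM1. Stops per gene and per position (over 50 in the 6 libraries) were tested across all genes with edgeR 4.0.16 in R 4.3.3 (quasi-likelihood test, all 6 libraries in 1 fit, Benjamini-Hochberg adjustment, threshold 0.05). Copies were scaled by TMM after filterByExpr, and positions by the total of their gene. On simulated data, the gene test recovered 12% of 2-fold and 92% of 4-fold changes in DMS against NT with 6 false calls among 13216 genes, and the position test 0% and 16% with 3 among 20000 positions. The simulated replicates were independent, with a common dispersion. In the data, 20.4% of the positions tested and 41.8% of those in U1 had replicates within 1 stop in every treatment. The simulations do not cover such positions. Reactivities used a pseudocount of 1 and residues with over 50 stops.

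The labels call the replicates biological. Where replicates were equal below counting noise (index under 0.1) or too few to judge, copies entered the counts of calls, given by class, and no adjusted p is printed. Floors (3 stops) cover counting error only.

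Named copies were ENSMUST00000083033, the 6 with the most stops (all U1a), and in each reagent the 3 largest called changes in either direction without overlap between groups. Named residues were the 10 largest called changes of U1a within a loop or the 5′ end in each reagent. The other residues and copies described were chosen after their values were seen. The members and gene lists were chosen with earlier results of these data known. Alternatives were DESeq2 1.42.0, no filter, a replicate block, other scalings and minimums, leaving out each replicate, and positions found once in the genome. Files of combined replicates were not used here.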

Additional observations from a re-analysis of the deposited data

How the results depend on the processing

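With positions found once in the genome, 67 copies were called in DMS against NT in place of 106, and 15 in CMCT against NT in place of 30. The CMCT count was 70 with DESeq2 and 46 (21 lower) with the replicate block. The replicate numbers were not taken to pair the samples (deviations from the group means correlated at r = 0.584 for NT with DMS, -0.0607 for NT with CMCT and -0.0826 for DMS with CMCT), and the block gave 112 copies in DMS against NT, 99 between the reagents, and 2360 and 1253 positions in DMS and CMCT. Leaving out each replicate gave 75 to 104 copies in DMS, 14 to 35 in CMCT and 58 to 106 between the reagents. For positions it gave 0 to 1902 in DMS and 59 to 457 in CMCT over the libraries of each contrast, with 0 by edgeR without NT replicate 1, NT replicate 2 or DMS replicate 2 (2534, 2506 and 2861 at an unadjusted p under 0.05). Library size as the scale gave 1019 positions in CMCT. Without positions of equal replicates, an alternative chosen after seeing the data, 883 positions were called in DMS and 310 in CMCT, of 2885 tested. The loop minus stem reactivity was 0.138 with a pseudocount of 5, 0.188 when Winsorised over positions above 0, 0.201 with DMS alone, 0.207 with CMCT alone, 0.00139 with helix ends counted as single-stranded and 0.148 to 0.155 without a replicate. The share of highly reactive residues that were single-stranded was 56.8% with that pseudocount, 83.3% with that Winsorising, 82.4% with helix ends counted as single-stranded (of 66.7% so counted), and 61.9% to 68.6% without a replicate. The change of ENSMUST00000083033 in CMCT reversed to 2.19 with positions found once, and that of ENSMUST00000084000 ran from -0.12 without CMCT replicate 2 to 0.67 without CMCT replicate 1. Among named copies, 157 results kept direction and call, 23 lost and 8 gained a call, and among named residues 84 kept and 73 lost it. The cause was not tested. U1a could not be judged from residue 115 on.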
